A study of Mus musculus with 32 samples.

Results

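The brains of male Nox4 knockout mice were compared with a wild-type RNA pool on 2-colour cDNA arrays, and the 8 arrays labelled brain, out of 32 in the series, are described here across all probes. They come from 4 animals, each hybridised against the pool on 2 arrays with the dyes exchanged. The 2 arrays of an animal were averaged, so that every brain value rests on up to 4 animals. Kidney, muscle and pancreas of the same 4 animals fill the other arrays and serve below only to show where brain differs.

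The knockout animals were Nox4 -/- on C57BL/6, aged 17 weeks, and carried no other allele or treatment named in the labels. The pool came from wild-type males of that age and strain; its labels and the design count 4 wild-type mice, while the labelling protocol gives 6 control animals. The labels name no tissue for the pool's RNA. It is a single control sample, so its own animal-to-animal spread is in none of the errors given here. Each labelling used 20 µg of total RNA. No source used here gives the design of the Nox4 allele or the regions of brain taken.

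NOX4 is a membrane NADPH oxidase that passes electrons from NADPH to oxygen and releases mainly hydrogen peroxide. It works together with the small membrane subunit p22phox, encoded by Cyba, and is regarded as active without the cytosolic organisers that other NADPH oxidases need. In brain, NOX4 has been described in neurons, glia and vessel walls, and it is studied there as a source of peroxide after ischaemia. The comparison asks which transcripts of the unchallenged adult brain differ when it is missing.

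No gene passed the test. Values are log2 ratios, taken here as knockout over pool without proof, so 0 means equal signal and 1 means a doubling. With limma's moderated test of the animal means against 0 and Benjamini-Hochberg adjustment, 0 of 16682 genes (0%) had an adjusted p under 0.05, and the smallest adjusted p was 0.775. At an unadjusted p under 0.05 there were 751 genes (4.5%), where a uniform spread of p would give 834.1; 390 of them (2.34%) lay above 0 and 361 (2.16%) below. The direction of the ratio is not stated, as described below, and with the ratios of the arrays with the knockout in Cy3 turned this count was 2505, with 0 genes called. The genes named below are therefore described by their values, and none of them is called changed.

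If the direction taken holds, the size of any difference was bounded for most genes. The 95% interval of the mean lay wholly within 1.5-fold either way (0.585 on the log2 scale) for 15810 genes (94.8%). It lay wholly beyond 1.5-fold for 2 genes (0.012%), both of them probes without a symbol. With the ratios of the arrays with the knockout in Cy3 turned, 15453 of 16682 intervals lay within 1.5-fold. If the deposited ratios run from Cy5 to Cy3, averaging an animal's 2 arrays unturned cancels a difference between knockout and pool. The unturned intervals would then not bound it. The central 95% of gene means ran from -0.25 to 0.22, and the median SD between animals was 0.126. Among the 8892 genes with a symbol, 22 had a mean beyond 1.5-fold and 0 a mean beyond 1 on the log2 scale. The interval reached a median of 0.157 to either side of the mean. That reach takes each gene alone, so it is not the smallest difference that the adjusted test could call.

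The targeted gene gave no check of the labels, because Nox4 had 0 probes on the array. A ratio also holds no level of expression, so brain markers cannot check the tissue label: 28 probes of neuronal genes had a value in 99.6% of cases on the brain arrays and in 96.9 to 100% on those of the other tissues. In a bulk extract, fewer cells of a type and less RNA per cell cannot be told apart.

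The arrays limited the reading in 3 measured ways. First, each brain array held 20280 to 20607 values, with medians of -0.01 to 0.02, but their SD over probes ran from 0.219 to 0.681. Animal 4 had the widest values: the SD of its gene values was 0.333, against 0.137 to 0.220 in animals 1 to 3, and 9.11% of its genes lay beyond 0.5 in size against 0.971 to 3.1%. Second, the direction of the deposited ratio is not stated in the sources used here. Its values beyond 8 in size, all at 16.2 or more and treated as missing, were positive on the arrays with the knockout in Cy5 (220 positive, 0 negative) and negative on those with it in Cy3 (0 positive, 244 negative). If all ratios run from knockout to pool, the empty channel is then Cy3 on every array. If they run from Cy5 to Cy3, it is the pool's channel on every array. These values alone do not settle the direction, and the reading from knockout to pool is used.

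Lastly, read in this direction, the values differed more between dyes than they shared between the arrays of an animal. The paired arrays of each animal had a correlation over probes of -0.18 to -0.01, while arrays of different animals with the same dye orientation correlated at 0.03 to 0.29 in all 12 pairs. The points of these correlations share probes and dyes, so they are given as descriptions. The mean kept its sign between the dye orientations in 6151 genes (36.9%), and the dye part, the distance from each orientation to their mean, exceeded the mean in size in 10530 genes (63.1%). Its median size was 0.092 against 0.06 for the mean. With the ratios of the arrays with the knockout in Cy3 turned, the sign would be kept by 10527 genes, so this limit rests on the direction taken. What share of any single gene's value the dye contributes was not tested.

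**Figure D1:**
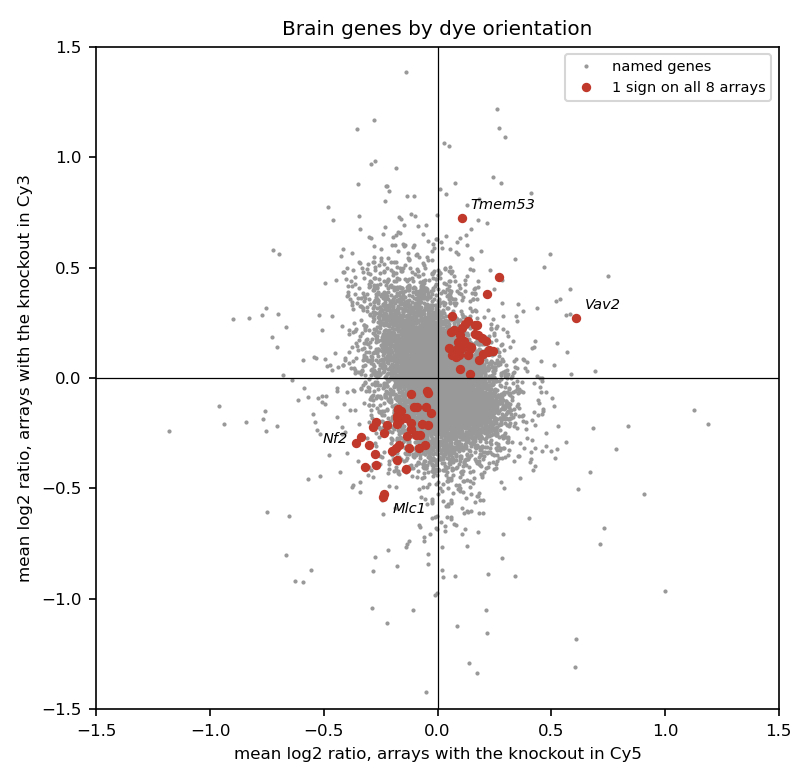
Each point is a named gene, placed by its mean log2 ratio over the 4 brain arrays with the knockout in Cy5 (horizontal) and over the 4 with it in Cy3 (vertical); 5 of 8892 genes lie outside the axes. Red points have 1 sign on all 8 arrays. The cloud leans from upper left to lower right, so most genes change sign with the dye, and 36.9% of all genes tested keep it.

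Gtf2f2 led the genes with a symbol by p. It encodes the small subunit of TFIIF, a general transcription factor that joins RNA polymerase II at promoters. Its animal values were 0.51, 0.44, 0.47 and 0.56 in animals 1 to 4, with a mean of 0.49 ± 0.05 (SE, n = 4; limma adjusted p = 0.775). The 4 animals lay close together, all above 0. Their arrays did not: in animal 3 the array with the knockout in Cy5 read -0.39 and the other 1.32, and in animal 4 they read 1.47 and -0.35. The narrow spread of the animal means thus came from pairs of arrays that lay far apart, and 5 of 8 arrays were above 0.

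Otx1, a homeobox transcription factor of deep cortical layers, led by p among genes below 0 in all 4 animals and in both dyes. It read -0.28, -0.41, -0.25 and -0.39 in the 4 animals, with a mean of -0.33 ± 0.05 (SE; limma adjusted p = 0.775). Every array was below 0, from -0.02 to -0.76, and the means of the dye orientations were -0.27 and -0.39. The leading genes were picked for 1 sign in every animal and in both dye means, so that agreement is no result about them.

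Pkig encodes an inhibitor of the catalytic subunit of protein kinase A, the kinase that carries cAMP signals. Its values of -0.21, -0.20, -0.28 and -0.27 had a mean of -0.24 ± 0.05 (SE; limma adjusted p = 0.775), with all 8 arrays between -0.19 and -0.34. It was the steadiest of the leading genes from array to array, and its 2 probes had means of -0.20 and -0.28.

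Alas2, the first enzyme of haem synthesis in erythroid cells, read -0.25, -0.15, -0.23 and -0.30, with a mean of -0.23 ± 0.05. Gpc3, a heparan sulphate proteoglycan of the cell surface, read -0.24, -0.19, -0.58 and -0.43, with a mean of -0.36 ± 0.08. Cxcl9, an interferon-induced chemokine that attracts T cells, read -0.20, -0.17, -0.26 and -0.44, with a mean of -0.27 ± 0.06. All 3 lay below 0 on all 8 arrays, as did Nf2, which encodes the tumour suppressor merlin (-0.11, -0.34, -0.30 and -0.56; mean -0.33 ± 0.08).

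Alox12e, an epidermal lipoxygenase, had the largest mean of the leading genes but an uneven one. It read -0.16, -1.08, -0.99 and -0.72, with a mean of -0.74 ± 0.16. Animals 2 and 3 each rested on a single low array, at -2.33 and -2.07, beside a partner at 0.16 and 0.09. Lipoxygenase genes resemble each other, and a cDNA probe may hybridise with more than 1 of them.

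Serping1, the inhibitor of complement C1, read -0.56, -0.44, -0.07 and -0.65, with a mean of -0.43 ± 0.10 and 7 of 8 arrays below 0. Rhbdf1, an inactive rhomboid protein, and Ufd1, a cofactor of the p97 segregase that extracts proteins for degradation, had means of -0.24 ± 0.06 and -0.25 ± 0.06 and lay below 0 on all 8 arrays. Cep41, a protein of cilia and centrosomes, had a mean of -0.30 ± 0.07 with arrays on both sides of 0. Rbfox2, a splicing regulator, had a mean of -0.21 ± 0.05, but 1 of its probes was measured in 2 animals at -0.65 and the other in all 4 at -0.02.

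Above 0, Sec23b, a coat protein of the COPII vesicles that carry cargo from the endoplasmic reticulum, followed Gtf2f2. It read 0.25, 0.15, 0.28 and 0.37, with a mean of 0.26 ± 0.06 and 7 of 8 arrays above 0. Erp29, a chaperone-like protein of the endoplasmic reticulum, read 0.12, 0.49, 0.44 and 0.93, with a mean of 0.50 ± 0.13. The first was even between animals and the second was not. Between dyes neither was: with the knockout in Cy5 and in Cy3, Sec23b read 0.08 and 0.44, and Erp29 0.18 and 0.81.

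Other leading genes above 0 had means of 0.18 to 0.44. Cdca8, a subunit of the chromosomal passenger complex (0.28 ± 0.06), Rbl1, a pocket protein that restrains the cell cycle (0.21 ± 0.06), and Cenpu, a centromere protein (0.20 ± 0.05), act in the cell cycle. Coq3, an enzyme of ubiquinone synthesis, stood at 0.25 ± 0.07, and Ing2, a chromatin reader, at 0.21 ± 0.05. With the knockout in Cy5 and in Cy3, Coq3 read 0.10 and 0.41, and Ing2 0.06 and 0.37. Cenpu leaned the other way, at 0.35 and 0.05. Prap1 (0.20 ± 0.05) lay above 0 on all 8 arrays, and Kank2 stood at 0.18 ± 0.05. Spata3 stood at 0.35 ± 0.09 over 3 unequal probes. Cdyl, a chromatin corepressor, stood at 0.44 ± 0.10, but its 2 probes had means of 0.89 and -0.02.

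**Figure D2:**
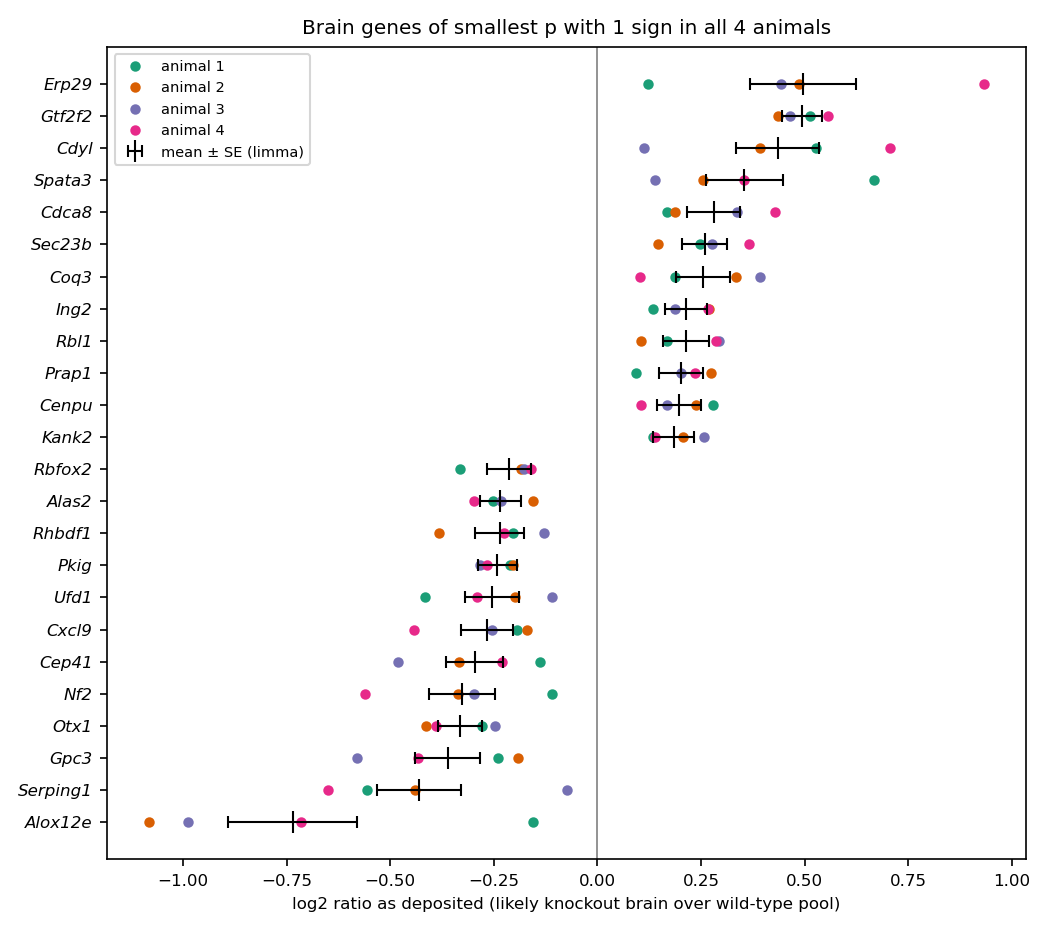
Log2 ratios of the 4 animals (coloured points) and the limma mean with its SE (black) for the 24 named genes of smallest p whose animals share 1 sign and whose mean keeps it in both dye orientations. Gtf2f2 and Pkig have narrow animal spreads, while Alox12e (-0.16 to -1.08) and Erp29 (0.12 to 0.93) spread widely.

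A sign shared by all 4 animals was found above 0 in 1451 genes (8.7%) and below 0 in 1093 (6.55%). A sign shared by all 8 arrays, which also requires it in both dyes, was found above 0 in 66 genes (0.396%) and below 0 in 80 (0.48%), of which 37 and 42 had a symbol. With the ratios of the arrays with the knockout in Cy3 turned, an alternative added after seeing the data, the counts were 534 (3.2%) and 623 (3.73%) for all 8 arrays and 2555 (15.3%) and 2235 (13.4%) for all 4 animals. If the deposited ratios run from knockout to pool, the turned reading adds up a dye bias common to the arrays, and the other cancels it. If they run from Cy5 to Cy3, the turned reading adds up a difference between knockout and pool and cancels the bias. The reading used here then cancels the difference and keeps the bias. Which of these lies behind the counts was not tested. The genes named next hold for the direction taken. Of the 20 largest of these with a symbol, 13 had their largest value in animal 4, the animal with the widest values.

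Tmem53, a membrane protein, was the largest above 0. It read 0.15, 0.14, 0.16 and 1.22, with a mean of 0.42 ± 0.20 that was 0.15 without animal 4. Nup85, a nuclear pore subunit, read 0.03, 0.07, 0.31 and 1.05, and its mean of 0.36 was 0.14 without animal 4. These means were carried by a single animal.

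Trmt10b, a tRNA methyltransferase (0.30 ± 0.10), was highest in animal 2, at 0.65, and stood at 0.18 without it. Slc6a9, the glycine transporter GlyT1 of glia and some synapses, stood at 0.21 ± 0.08, and at 0.12 without animal 4. Ttll6, a tubulin-modifying ligase, stood at 0.20 ± 0.08, and at 0.10 without animal 2. Mcph1, a regulator of chromosome condensation and brain size, stood at 0.19 ± 0.07, and Il18r1, a subunit of the interleukin-18 receptor, at 0.19 ± 0.06. Tle1, a transcriptional corepressor, stood at 0.19 ± 0.06. Vav2 (0.28 ± 0.10) had 2 probes, of which 1 was measured in a single animal, and stood at 0.17 without animal 4. Its array values include that probe where the animal means do not: animal 1 stood at 0.02, its arrays at 0.40 and 0.06. The sign shared by its 8 arrays thus rests on a mix of probes.

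Mlc1, a membrane protein of astrocyte end-feet, was the largest below 0. It read -0.11, -0.13, -0.33 and -0.98, with a mean of -0.39 ± 0.15 that was -0.19 without animal 4. Rgs6, a brake on G protein signalling in neurons, read -0.18, -0.22, -0.18 and -0.95, and its mean of -0.38 was -0.19 without animal 4. Both lay below 0 in every animal, and animal 4 set their size.

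Rab5a, the GTPase of early endosomes, stood at -0.28 ± 0.08, and Rab10, a GTPase of exocytic transport, at -0.28 ± 0.08 with a second probe measured in 2 animals. The array values of Rab10 mix its probes as well: animal 2 stood at -0.10, its arrays at -0.28 and -0.12. Zp3r, a sperm protein, stood at -0.30 ± 0.08. Zfp157, a zinc finger protein, stood at -0.27 ± 0.12, and at -0.12 without animal 4. The transcript 4933427D14Rik stood at -0.31 ± 0.08, of which 1 of its 5 probes, at -1.55, gave nearly all.

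**Figure D3:**
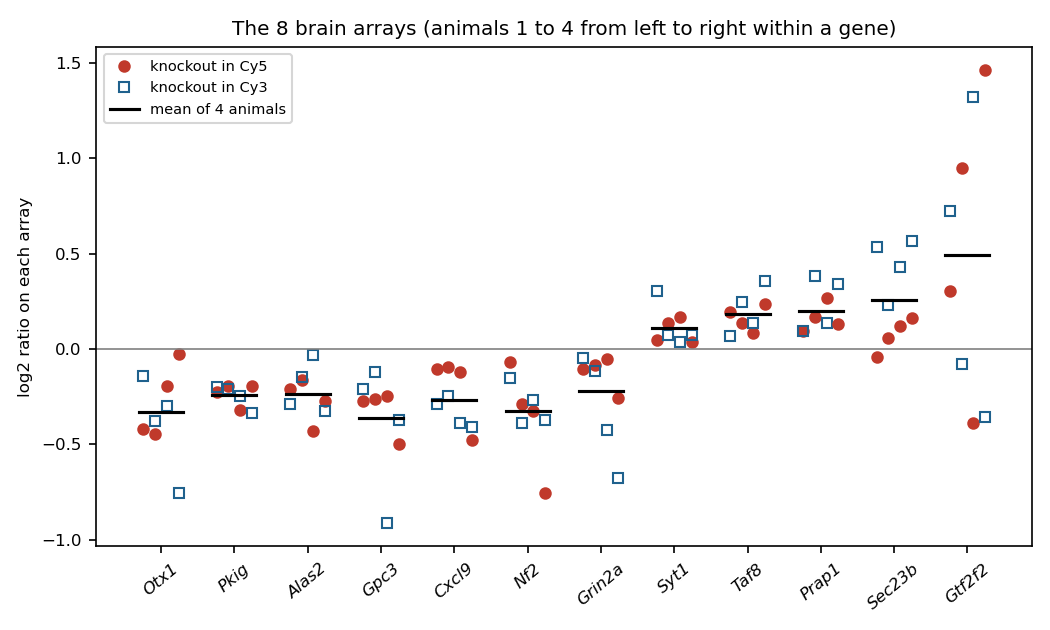
Log2 ratios on each of the 8 brain arrays for 12 genes described in the text, with the knockout in Cy5 (filled circles) or in Cy3 (open squares), and the mean of 4 animals as a bar. Pkig is the tightest group of points, and Gtf2f2 spans -0.39 to 1.47 although its animal means lie between 0.44 and 0.56.

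Gene groups were read from 39 lists of cell type markers, brain regions and functions, with 682 genes tested. Of these, 0 were called, 34 (4.99%) had an unadjusted p under 0.05, against 4.5% of all genes, and 645 (94.6%) had an interval within 1.5-fold, against 94.8% of all genes. Over all genes, 53.5% of means lay above 0, and counts of list members above 0 are to be read beside that share. The list medians ran from -0.05 to 0.07, with 23 above 0 and 16 below, beside a median of 0.01 over all genes tested. These shares were close to those of the whole array. Of the 159 named genes, 91 had a mean that was smaller by over 1.5 times, or of the other sign, without a single animal, and that animal was animal 4 for 60 of them. With only the arrays with the knockout in Cy5, 39 changed sign, among them Slc18a2, Gad2, Cnp, Insr, Kcnh3 and Gria1. With only those in Cy3, 13 did, among them Lman1 and Gria3.

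NADPH oxidase components were close to 0. Of 19 listed, 9 were tested, 0 were called, and all 9 intervals lay within 1.5-fold. Cyba, chosen here for its role as the partner of NOX4 and with its values known, read 0.06, 0.05, 0.08 and -0.001, with a mean of 0.05 ± 0.05. Cybb, the catalytic subunit of the phagocyte oxidase, stood at 0.03 ± 0.07 and Rac1, a GTPase that activates other oxidases, at -0.03 ± 0.07; both were chosen in the same way. Of the organisers and activators, Noxo1 stood at 0.12 ± 0.06 and Ncf4 at 0.13 ± 0.09, and the GTPase Rac2 of blood cells at -0.19 ± 0.14.

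Antioxidant and glutathione genes divided evenly, with 23 of 47 above 0 and 24 below, a median of -0.01, 0 called and 44 intervals within 1.5-fold. Gpx1, the main cytosolic glutathione peroxidase, read -1.27, -0.42, -0.02 and -0.27, with a mean of -0.50 ± 0.20 that was -0.24 without animal 1. Hmox2, the constitutive haem oxygenase of neurons, read 0.05, -0.38, -0.35 and -0.74, with a mean of -0.35 ± 0.12, and -0.23 without animal 4. The animals overlapped 0 or nearly reached it in both genes. Mgst3, a microsomal glutathione transferase, stood at -0.14 ± 0.06.

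Genes of hypoxia had 14 of 22 above 0, a median of 0.02 and 0 called. Egln3, a prolyl hydroxylase that marks HIF for degradation, stood at 0.14 ± 0.06, Ldha, lactate dehydrogenase A, at 0.11 ± 0.06, and Mxi1, a MYC antagonist, at -0.13 ± 0.07. Of 26 chaperone and endoplasmic reticulum stress genes, 13 lay on each side of 0 and all 26 intervals were within 1.5-fold. Hyou1, an endoplasmic reticulum chaperone, stood at -0.16 ± 0.06. Hspa1a and Hspa1b, near-identical heat shock genes that a cDNA probe cannot be counted on to separate, stood at -0.16 ± 0.07 and -0.23 ± 0.11.

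Markers of neurons had medians near 0. Of 16 pan-neuronal genes, 9 were above 0, the median was 0.02, 0 were called and 15 intervals lay within 1.5-fold. Syt1, the calcium sensor of transmitter release, read 0.18, 0.10, 0.10 and 0.06 and lay above 0 on all 8 arrays, with a mean of 0.11 ± 0.05. Nefh, the heavy neurofilament subunit, stood at -0.16 ± 0.07 and Gap43, a growth cone protein, at -0.19 ± 0.10.

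Among transmitter types, 4 of 8 glutamatergic markers, 7 of 13 GABAergic markers and 5 of 8 monoamine and cholinergic markers were above 0, with 0 called. Slc18a2, the vesicular monoamine transporter, read 0.13, 0.25, 0.09 and 0.24, with a mean of 0.18 ± 0.05. Gad2, which makes GABA, stood at -0.21 ± 0.10, and Slc17a7, the vesicular glutamate transporter of cortex, at 0.06 ± 0.05. Prox1, a marker of dentate granule cells, stood at 0.17 ± 0.13 with 0.66 in animal 2.

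Glial markers were similarly placed. Of 14 astrocyte genes, 7 lay on each side of 0, with Mlc1 as the largest; Clu stood at -0.12 ± 0.05 and Slc1a3, a glutamate transporter, at -0.20 ± 0.14, with -0.02 without animal 4. Of 12 oligodendrocyte genes, 7 were below 0, 4 of them in all 4 animals, the median was -0.05 and all 12 intervals lay within 1.5-fold. Over all genes, 6.55% lay below 0 in all 4 animals. Cnp, a myelin enzyme, stood at -0.16 ± 0.07, Olig2, a lineage transcription factor, at -0.10 ± 0.05 and Cspg4, the NG2 proteoglycan of precursors, at -0.11 ± 0.06. Mbp, a main myelin protein named here with its value known, stood at 0.03 ± 0.06. All 13 microglial intervals were within 1.5-fold, with C1qb, a complement subunit, at -0.13 ± 0.06.

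Markers of vessels and of surrounding tissue covered what a dissection could carry along. Of 13 endothelial genes, 9 were above 0 with a median of 0.06; Esam, a junction protein, read 0.12, 0.32, 0.31 and 0.10, with a mean of 0.21 ± 0.06, while the receptor Tek and the cadherin Cdh5 stood at -0.17 ± 0.08 and -0.17 ± 0.10. Pericyte and smooth muscle genes lay mostly below 0, 8 of 9, at a median of -0.04. Choroid plexus and ependymal genes did too, 7 of 8, at a median of -0.05. Folr1, a folate receptor of the choroid plexus, read 0.03, -2.44 and 0.02 in the 3 animals measured. Its mean of -0.80 ± 0.53 came from animal 2, whose Aqp1, a water channel of the same epithelium, stood at 0.10.

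Of 13 meningeal genes, 8 were above 0, with the collagen Col3a1 at -0.28 ± 0.13. Of 7 erythroid genes, 4 were below 0; beside Alas2, the regulator Klf1 stood at -0.14 ± 0.09 and the globin Hba-x at 0.06 ± 0.07. Of 6 pituitary and pineal genes, 4 were below 0, and growth hormone, Gh, stood at -0.04 ± 0.05. Of 9 skeletal muscle genes, 7 were below 0, with Tnni2 at -0.21 ± 0.09. The medians of these 4 lists ran from -0.04 to 0.00, and what part blood or attached tissue has in any single value was not tested.

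Among regional markers, 0 genes were called. Of 14 cortical and hippocampal genes, 9 were above 0 with a median of 0.03, and Otx1 was the member of smallest p; Lhx2, another forebrain homeobox gene, stood at -0.40 ± 0.18 in 3 animals, and at -0.13 without animal 3. Of 8 striatal genes, 7 were above 0 with a median of 0.04, and the dopamine receptor Drd2 stood at 0.07 ± 0.06. Of 9 cerebellar genes, 5 were above 0, with Cbln1, a synaptic organiser, at -0.18 ± 0.10. Hypothalamic and thalamic genes divided evenly, 7 and 7, with the peptide genes Trh at 0.12 ± 0.08 and Gal at 0.08 ± 0.06. Of 7 hindbrain genes, 4 were below 0, and the neighbouring Hoxb4 and Hoxb5 lay on opposite sides at -0.23 ± 0.10 and 0.16 ± 0.09.

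Among glutamate receptors, 7 of 13 were above 0, with a median of 0.04 and 12 intervals within 1.5-fold. Grin2a, an NMDA receptor subunit, read -0.08, -0.10, -0.24 and -0.47 and lay below 0 on all 8 arrays, with a mean of -0.22 ± 0.08 and -0.14 without animal 4. Gria3, an AMPA receptor subunit, stood at -0.20 ± 0.08, and at -0.13 without animal 4. Gria1, another AMPA subunit, stood at 0.14 ± 0.06. Both AMPA genes changed sign with the dye. Gria3 read -0.44 with the knockout in Cy5 and 0.05 with it in Cy3, and Gria1 read -0.04 and 0.32. The means of the receptor subunits did not share a direction.

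Of 3 GABA and glycine receptor genes tested out of 24 listed, 2 were above 0, with Gabrb1 at 0.08 ± 0.07. Of 12 receptors for amines and acetylcholine, 7 were above 0, with the muscarinic receptors Chrm1 at 0.11 ± 0.05 and Chrm3 at -0.18 ± 0.12. Of 18 sodium and calcium channel genes, 11 were below 0. Cacnb1, a calcium channel beta subunit, read -0.38, -0.66, -0.31 and -0.10, with a mean of -0.36 ± 0.09. Cacnb4, a related subunit of brain channels, stood at 0.51 ± 0.31, with 1.76 in animal 4 and a mean of 0.09 without it. Of 20 potassium channel genes, 11 were above 0, with Kcnh3 at 0.15 ± 0.06 and Kcnd3 at -0.32 ± 0.15.

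Synaptic vesicle genes lay below 0 in 19 of 29 cases, their median was -0.02, and 28 intervals were within 1.5-fold; Syt4 stood at 0.14 ± 0.07 and Rims2, an active zone scaffold, at -0.12 ± 0.06. Of 17 postsynaptic genes, 9 were above 0, and Homer1 stood at -0.25 ± 0.15, with -0.07 without animal 4. Of 15 immediate early genes, which neurons switch on with activity, 9 were below 0, with Fos at -0.14 ± 0.08 and Dusp1 at 0.20 ± 0.11, or -0.06 and 0.09 without animal 4. Of 18 neuropeptide and trophin genes, 10 were above 0 and all 18 intervals lay within 1.5-fold; Scg3, a granin of secretory granules, stood at -0.20 ± 0.07 in 3 animals.

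**Figure D4:**
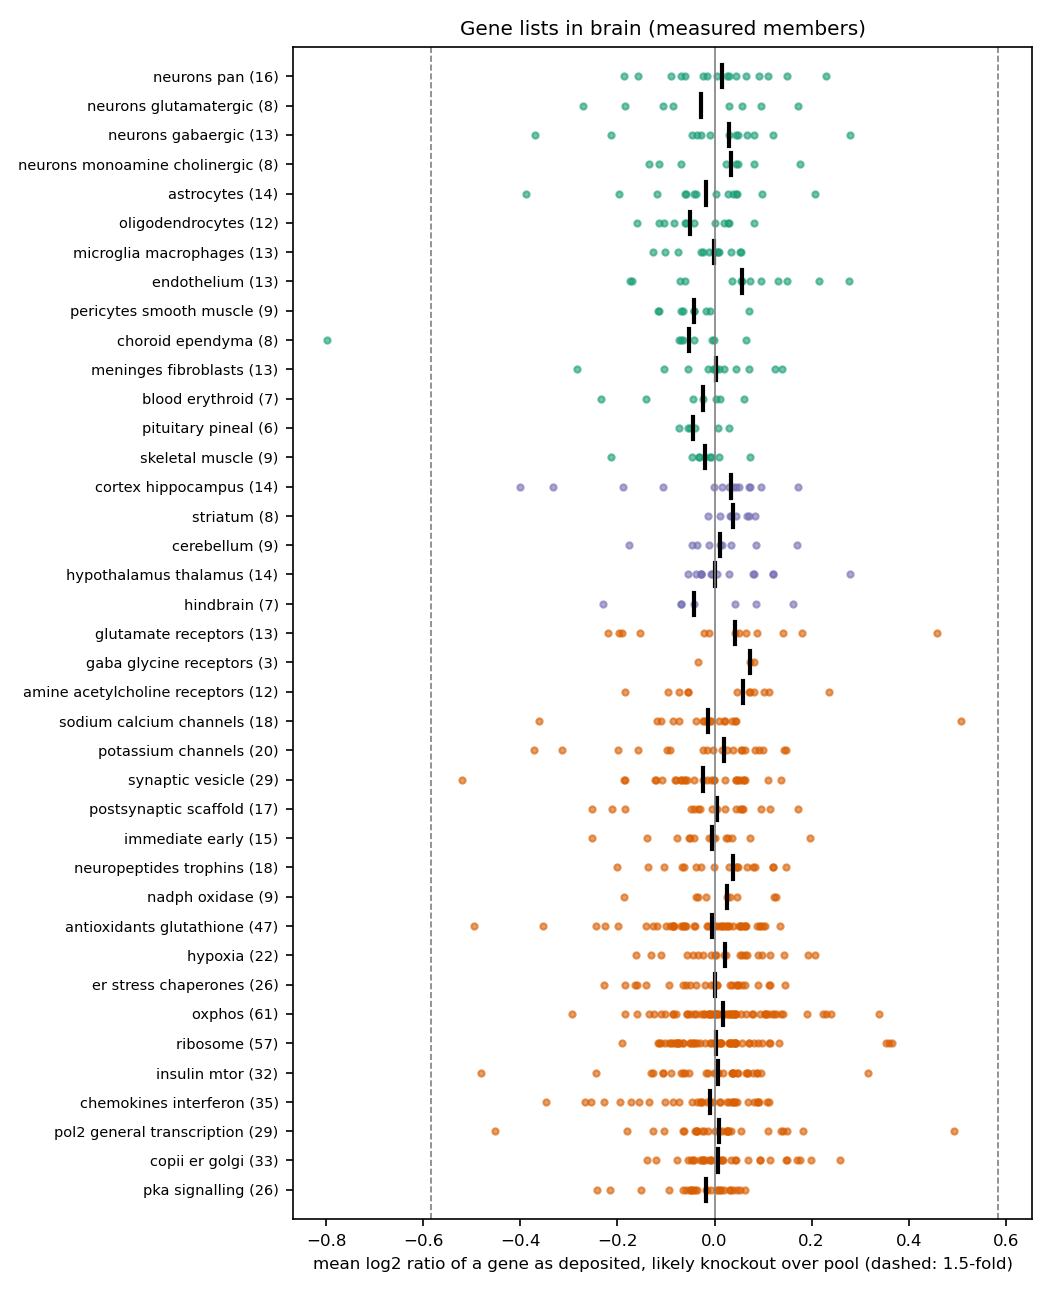
Mean log2 ratio in brain of every tested member of the 39 gene lists (points; green cell types, purple regions, orange functions) with the list median as a black bar, the number of genes in brackets and 1.5-fold as dashed lines. The medians lie between -0.05 and 0.07, and Folr1 at -0.80 is the only mean drawn beyond 1.5-fold.

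Metabolic and housekeeping groups were the largest lists. Of 61 oxidative phosphorylation genes, 37 were above 0, the median was 0.02, 0 were called and 57 intervals lay within 1.5-fold. Ndufv1, a core subunit of complex I, read 0.15, 0.06, 0.23 and 0.32, with a mean of 0.19 ± 0.06, while Ndufa6, an accessory subunit of it, read -0.09, -0.21, -0.24 and -0.63, with a mean of -0.29 ± 0.09. These subunits of the same complex lay on opposite sides of 0, each in all 4 animals. Both were picked for their small p within the list, so that agreement is no result about them. With the knockout in Cy5 and in Cy3, Ndufv1 read 0.25 and 0.13, and Ndufa6 -0.08 and -0.50. Without animal 4, Ndufa6 stood at -0.18.

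Of 57 ribosomal protein genes, 30 were above 0 and the median was 0.00. Rpl27 stood at 0.37 ± 0.12, and at 0.23 without animal 4. Rps27 stood at 0.35 ± 0.06 in 3 animals. Of 32 insulin and mTOR genes, 18 were above 0. Sos1, a Ras exchange factor, read -0.26, -0.77 and -0.42 in 3 animals, with a mean of -0.48 ± 0.11. Insr, the insulin receptor, stood at 0.32 ± 0.13, and at 0.15 without animal 4. Of 35 chemokine and interferon genes, 19 were below 0; beside Cxcl9, the cytokine Il18 read 0.04, -0.27, -0.42 and -0.37, with a mean of -0.25 ± 0.09.

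The lists around the leading genes were drawn up with those genes known, so they lend them no support. Of 29 genes of RNA polymerase II and its general factors, 16 were above 0 with a median of 0.01; beside Gtf2f2, Taf8, a TFIID subunit, stood at 0.18 ± 0.05 with all 8 arrays above 0, and Cdk7, the TFIIH kinase, at 0.14 ± 0.05. Of 33 genes of transport between endoplasmic reticulum and Golgi, 18 were above 0, 6 of them in all 4 animals and 0 below in all 4, with all intervals within 1.5-fold. Over all genes, 8.7% lay above 0 in all 4 animals and 6.55% below. Lman1, the cargo receptor ERGIC-53, stood at 0.17 ± 0.07 and Sec16b, which marks the exit sites, at 0.15 ± 0.06.

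Of 26 genes of protein kinase A signalling, 15 were below 0, 6 of them in all 4 animals against 1 above in all 4, with a median of -0.02. Over all genes, 6.55% lay below 0 in all 4 animals and 8.7% above. This list too was drawn up with Pkig known, so its counts lend Pkig no support. Prkar1a, a regulatory subunit, read -0.28, -0.34, -0.20 and -0.04, with a mean of -0.22 ± 0.06. Adcy2, a brain adenylyl cyclase, read -0.09, -0.13, -0.08 and -0.08, below 0 on all 8 arrays. Adcy2 was small and even, as Pkig was. The arrays of Prkar1a ran from -0.67 to 0.23, but these array values include a second probe that enters no animal mean. Limma called none of the 3 genes (adjusted p = 0.775 for each).

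The ratios of brain were then compared with those of the other tissues. Brain and the other tissue were fitted together, and the test asks whether the knockout's ratio to the pool differs between them. The adjusted p was under 0.05 for 0 of 16654 genes against kidney (0%), 0 of 16531 against muscle (0%) and 0 of 16238 against pancreas (0%), with smallest limma adjusted p of 0.452, 0.181 and 0.760. At an unadjusted p under 0.05 there were 1299 (7.8%), 1609 (9.73%) and 806 genes (4.96%). With the ratios of the arrays with the knockout in Cy3 turned, these counts were 372, 1549 and 3850, so their order rests on the direction taken. Brain animals, with a median SD of 0.126, spread more than those of kidney (0.0986) and less than those of muscle (0.172) and pancreas (0.213). The 3 comparisons share the brain samples.

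Of the leading brain genes, Otx1 stood at 0.07 in kidney, -0.09 in muscle and -0.12 in pancreas, so that brain was lower by differences of -0.40 ± 0.10, -0.24 ± 0.16 and -0.21 ± 0.10. Pkig also had means below 0 elsewhere, at -0.15, -0.20 and -0.21, and the differences of brain from them were -0.09 ± 0.07, -0.04 ± 0.16 and -0.03 ± 0.09. Gtf2f2 had means of -0.03 (kidney), -0.26 (muscle) and 1.14 (pancreas, from animals at 0.15, 2.49 and 0.76). Alox12e was near 0 in kidney and stood at 0.15 in muscle and -0.08 in pancreas, with differences of -0.74 ± 0.17, -0.88 ± 0.19 and -0.65 ± 0.21. None of these differences passed the adjusted threshold.

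Against kidney, the genes of smallest p with brain higher were 1110004F10Rik (a difference of 0.60 ± 0.08), Gtf2f2 (0.53 ± 0.08), Pacs1, a sorting protein (0.45 ± 0.07), and Slc22a6, an organic anion transporter (0.46 ± 0.08). Slc22a6 stood at 0.14 in brain and -0.33 in kidney. With brain lower they were Pfn3 (-0.29 ± 0.06), Cxcl9 (-0.38 ± 0.08), Lrrc29 (-0.47 ± 0.11) and Ucp1 (-0.27 ± 0.06). The kidney values of Cxcl9 were 0.05, 0.14, 0.22 and 0.04, and the limma adjusted p of its difference was 0.553.

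Against muscle, the genes named are the 4 of smallest p in each direction. Brain was nearer 0 than muscle in all 8. They were picked for their difference from a tissue of wider spread, so this is no result about brain. With brain lower they were Psmd2, a proteasome subunit (-1.21 ± 0.15), Man1c1, a Golgi mannosidase (-1.39 ± 0.20), 2310030G06Rik (-1.24 ± 0.18) and Il18 (-0.78 ± 0.12). Psmd2 stood at -0.10 in brain and 1.10 in muscle. Il18 lay on opposite sides of 0, with brain at -0.25 and muscle at 0.53. With brain higher they were Eif4ebp3 (0.59 ± 0.10), Tmem107 (0.53 ± 0.10), Ctss (0.51 ± 0.10) and Ttll6 (0.51 ± 0.10), of which Ttll6 stood at 0.20 in brain and -0.31 in muscle. With a spread shared by all 4 tissues, 115 genes passed, 3 of them higher in brain, and without animal 1 36 passed, none higher in brain.

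Against pancreas, brain was higher for Pigf (0.58 ± 0.11), Egln3 (0.51 ± 0.10), Mrpl21 (0.59 ± 0.12) and Nid2, a basement membrane protein (0.74 ± 0.16). Egln3 stood at 0.14 in brain and -0.37 in pancreas. Brain was lower for Nsun6 (-0.95 ± 0.14), Best1 (-0.73 ± 0.13), Cox20 (-0.48 ± 0.10) and Tulp2 (-0.48 ± 0.10), which stood between -0.04 and 0.08 in brain. In these 4 genes brain was nearer 0 than pancreas, and they were picked in the same way as those against muscle. With the ratios of the arrays with the knockout in Cy3 turned, 173 genes passed against pancreas, 33 of them higher in brain, and 3 against muscle.

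**Figure D5:**
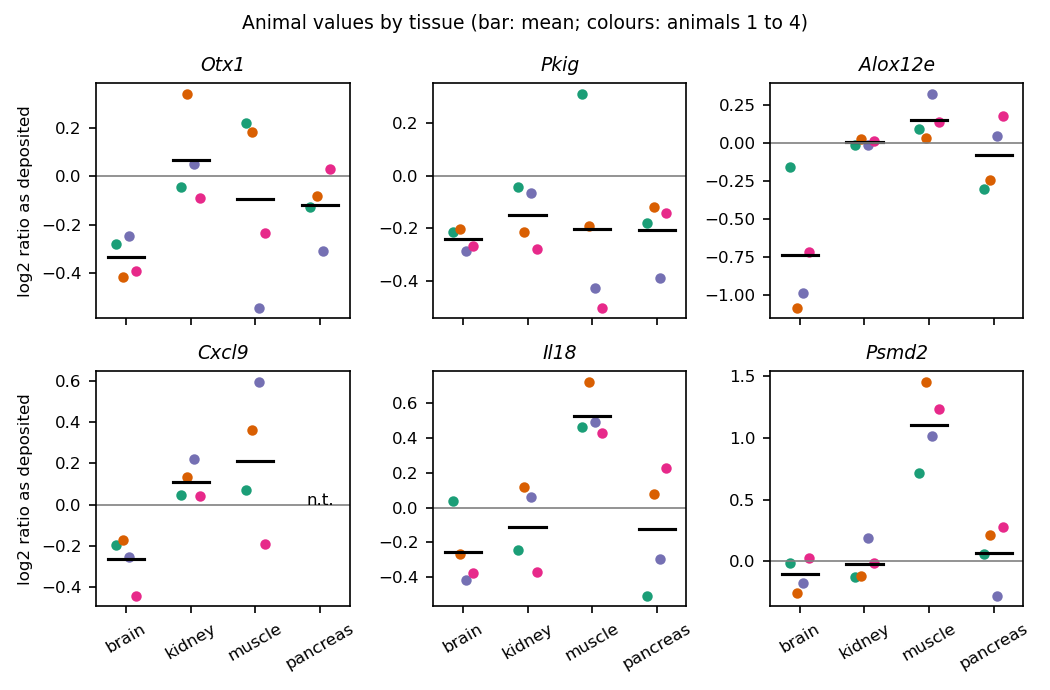
Log2 ratios of the 4 animals (points, in the order 1 to 4) and their mean (bar) in the 4 tissues for 6 genes described in the text; n.t. marks a tissue where a gene was not tested. Otx1 and Alox12e are lowest in brain, Pkig lies below 0 in all 4 tissues, and Psmd2 lies near 1.10 in muscle and near 0 elsewhere.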

How the data were processed

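Total RNA was labelled indirectly with Cy3 or Cy5 per the labels' protocols. The values analysed are the authors' deposited log2 ratios, 1 per probe and array; the log base is read from the values. Scanner, background correction and normalization: not given in the sources used here. No channel intensities were used. Values beyond 8 in size were set to missing, both arrays of an animal were required and averaged, and probes of a symbol were averaged for each animal, so that a gene's animals can rest on different probes. Of 20794 probes, 12771 had 1 symbol, 0 several and 8023 none in the platform annotation; all 12771 were matched to RefSeq by gene ID. A probe without a symbol was kept as a gene of its own, and a gene needed at least 3 animals (403 had 3). The number of arrays limits the precision.

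The animal means were tested against 0 with limma 3.58.1 in R 4.3.3 (lmFit, eBayes, Benjamini-Hochberg over all genes, two-sided). Tissue differences used the same test with 2 tissues in a fit. The script was tested on simulated data. Same-numbered samples of different tissues come from the same animal by the labels; their deviations correlated at -0.09 to 0.11 over 12 pairs of sets, and blocking on the animal changed no call.

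Named genes follow a rule: the 12 on each side of 0 with the smallest p, the same sign in every animal and under both dyes; the 10 largest on each side with 1 sign on all 8 arrays; up to 3 members of each list by smallest p; and 4 in each direction of each tissue difference. The rule gave 159 genes, and names outside it were chosen with their values known. The brain samples, rule and lists were chosen with earlier results of these data known. Of 1209 list entries, 733 were on the array, 13 of them under a synonym. Alternatives concern missing values, centring, scaling, probes, dyes, weights, single animals and the tissues in a fit.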

Additional observations from a re-analysis of the deposited data

Results flagged for a closer look

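In 13 of 194 groups of values, the extreme member stood farther from its nearest neighbour than Dixon's 95% limit allows; chance marks about 1 in 20 groups, or 9.7 here. Animal 4 was the extreme in Tmem53 (1.22; others 0.14 to 0.16), Rgs6 (-0.95; others -0.22 to -0.18), Zfp157 (-0.74; others -0.15 to -0.09), the fibroblast transcription factor Foxc1 (-0.24; others -0.07 to -0.05) and Cbln1 (-0.54; others -0.07 to -0.05). It was also the extreme in the GABA receptor subunit Gabrq (-0.18; others 0.00 to 0.04), the potassium channel subunit Kcnab1 (-0.42; others -0.10 to -0.05) and Hspa1a (-0.37; others -0.12 to -0.08). The array of animal 4 with the knockout in Cy3 had an SD over probes of 0.681, against 0.219 to 0.428 on the other brain arrays.

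Animal 1 was the extreme in Rbfox2 (-0.33; others -0.18 to -0.16), in Foxj1, a regulator of motile cilia (-0.025; others all at -0.09), and in Hoxb4 (0.16; others -0.42 to -0.32). Animal 2 was the extreme in Prox1 (0.66; others -0.04 to 0.06).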

How the results depend on the processing

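The count of genes called in brain was 0 under all 16 alternatives, with 443 to 2654 genes at an unadjusted p under 0.05 and a smallest limma adjusted p of 0.223 to 0.785. Intervals within 1.5-fold numbered 12667 of 16787 (only arrays with the knockout in Cy3) to 19135 of 20297 (probes taken singly). The totals differ, so these counts are to be read beside them and beside 15810 of 16682 in the main setting. With the ratios of the arrays with the knockout in Cy3 turned, 10527 genes kept their sign between the dye orientations, 3 genes were called in brain minus muscle (1 higher in brain) and 173 in brain minus pancreas (33 higher). That setting changed the sign of 114 of 159 named genes, 27 of 40 leading genes and 17 of 39 list medians, as follows from subtracting the orientations; Gtf2f2 then stood at 0.09 and Otx1 at 0.06. Brain minus muscle gave 115 genes with all 4 tissues sharing a spread, which has more samples behind each spread. Leaving out each animal in turn gave 6290 to 6486 genes for the dye sign, 14962 to 16124 for the size bound, and called 0 to 0 genes in brain and against kidney and pancreas and 0 to 36 against muscle, the 36 without animal 1. With the animal as a replicate block, 0 genes were called against kidney, 0 against muscle and 0 against pancreas. With only the arrays in Cy5, 39 of 159 named genes and 15 of 39 list medians changed sign, and with only those in Cy3, 13 and 14. The causes were not tested.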
